A study of Mus musculus with 12 samples.

Results

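The genes described here encode the proteins of the cytosolic ribosome, measured in mouse hepatocytes that had or lacked the coactivator PGC-1alpha and that had received a hairpin against the RNA-binding protein TLS or a control hairpin. Members were taken by symbol (the Rpl and Rps series with Rplp0, Rplp1, Rplp2 and Rpsa), through the RefSeq accession of each probe, without pseudogenes and S6 kinases. Of 84 protein-coding symbols that fitted this rule, 82 had a probe on the array, and Rpl10l and Rpl32l had no matched probe. The 82 genes had 118 probes, and each gene is represented by its brightest one. In all, 80 genes could be tested, 48 of the large and 32 of the small subunit, among 19020 genes or accessions tested. All 80 were above background on all 12 arrays. Rpl3l and Rpl39l were above background on 2 and 1 arrays and were not tested.

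Ribosomes translate messenger RNA in every cell, and each is built from ribosomal RNA and the full set of these proteins, which are assembled in the nucleolus and exported as a small and a large subunit. The mRNAs of these proteins are abundant and long-lived, and many begin with a 5′ terminal oligopyrimidine (TOP) tract, a run of C and U through which the growth-sensing kinase mTORC1 and the RNA-binding protein LARP1 control their translation. In the liver, ribosome content follows feeding and insulin. TLS binds RNA in the nucleus and takes part in transcription and splicing.

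Hepatocytes were isolated by collagenase perfusion from C57BL/6 mice with the genotype PGC-1alpha+/+ or PGC-1alpha-/- (below +/+ and -/-). Each culture was infected at a multiplicity of 5 with an adenoviral vector encoding shTLS or a control shRNA, so that control cells carried a virus too, and all medium held 100 nM dexamethasone and 100 nM insulin. RNA was taken 24 h after infection. The 4 groups, +/+ control, +/+ shTLS, -/- control and -/- shTLS, held 3 arrays each, and each of 6 mice gave 1 culture with either vector. The labels do not give the age of the mice, the part of Ppargc1a that was deleted or the hairpin's target site. Each replicate number lay on 1 slide with all 4 groups, and a group always took the same place on its slide, whose effect cannot be told apart from that of the group.

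Promoter sequence was matched by symbol in the RefSeq tables (build GRCm38.p6) for 62 of the genes, in 74 windows. A TOP-like tract, here a C at most 10 bases from the annotated start that is directly followed by at least 4 further C or T, was found in 54.1% of these windows and in 29.7% of all 32851 windows. It was found in at least 1 window of 38 of the 62 genes. The sequences are shown because TOP tracts are the shared regulatory feature of this gene family. Each runs from 30 bases before to 15 bases from the annotated start, and capitals mark the tract. The first 4 lie at chr4:86857353-86857397 (minus strand), chr11:114668550-114668594 (plus), chr7:4792935-4792979 (plus) and chr7:141447621-141447665 (plus).
Rps6: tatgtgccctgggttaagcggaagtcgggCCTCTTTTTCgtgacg
Rpl38: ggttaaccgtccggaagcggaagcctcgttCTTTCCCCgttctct
Rpl28: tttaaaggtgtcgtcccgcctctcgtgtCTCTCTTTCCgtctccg
Rplp2: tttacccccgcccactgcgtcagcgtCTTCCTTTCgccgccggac
Rpl15 (chr14:18270972-18271016, minus strand) has a tract of 17 bases, and the tract of Rpl12 (chr2:32961682-32961726, plus strand) is 6 bases long.
Rpl15: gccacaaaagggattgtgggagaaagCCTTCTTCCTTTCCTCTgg
Rpl12: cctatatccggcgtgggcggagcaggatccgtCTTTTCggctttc
The windows of Rpl4 (chr9:64173357-64173401, plus strand) and Rplp0 (chr5:115559437-115559481, plus strand) hold no tract by this rule. A run of C and T in the window of Rpl4 begins farther upstream than the rule allows, although it ends near the start.
Rpl4: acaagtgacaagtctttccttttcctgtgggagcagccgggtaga
Rplp0: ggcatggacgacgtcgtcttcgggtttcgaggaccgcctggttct

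In the whole windows (250 bases before to 50 after the start, both strands searched), the ETS-type motif CCGGAAG was in 36.5% of the ribosomal protein windows and in 8.86% of all windows. The corresponding shares were 16.2% and 6.34% for AAGATGG, a YY1-like motif, 10.8% and 7.15% for the E-box CACGTG, and 9.46% and 13.6% for the TATA motif TATAAA. The ETS-type and the YY1-like motif can share 3 bases where they meet. A match is only a description of these letters.

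On the arrays as a whole, 22655 to 26677 of 41174 probes were above background. Of the listed hepatocyte markers, 8 of 10 were measured. Markers of other liver cells were present too. With shTLS, averaged over genotypes, 8 of 8 measured macrophage markers, 6 of 6 stellate cell markers and 4 of 5 cholangiocyte markers had negative differences. So had 8 of 8 hepatocyte markers and 2 of 8 endothelial markers. The median log2 differences of these 5 types were, in the same order, -1.22, -0.39, -1.26, -0.55 and 0.18. Of the markers 0 were called (as defined below), where 8.31% of all genes were, and 49.1% of all genes had positive differences. The summed signal of the macrophage markers was 6760 to 15000 in +/+ control, 5410 to 10300 in +/+ shTLS, 11900 to 85100 in -/- control and 8070 to 25600 in -/- shTLS arrays. That of the cholangiocyte markers was 40700 to 142000, 19000 to 44300, 49200 to 214000 and 18500 to 62200. In whole cultures, fewer cells of a type and less RNA per cell cannot be told apart, and the part of these cells in the ribosomal protein values was not tested.

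Ribosomal protein probes were among the brightest of the array. The mean quantile-normalized log2 signal had a median of 16.4 over the 80 genes, and 65 of them were above 15, which was reached by 510, or 2.68%, of all genes tested. Signals of different probes are not levels that can be compared, but they place a probe on the scanner's range. The 5 brightest probes were those of Rps18 (18.06), Rps23, Rpl7a, Rplp0 and Rps2, and the 5 dimmest those of Rpl21 (7.98), Rpl31, Rpl14, Rpl7l1 and Rpl27a. The top of the quantile scale was 18.15, and Rps18 stood at it on 5 arrays, so no higher value of it could be read there.

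The SD within groups, on the quantile-normalized scale, had a median of 0.21 over the 80 genes and of 0.51 over all genes, most of which were dimmer. At a log2 signal of 14 to 16 the medians were 0.28 for ribosomal protein genes and 0.32 for other genes, from 16 to 17 they were 0.22 and 0.26, and above 17 they were 0.12 and 0.18. On this scale the SD was smallest for Rps3, a small-subunit protein at the mRNA entry site, and Rpl7 (both 0.05). On the spike-in scale, which sets each array by control RNAs added to the sample, these had SDs of 0.19 and 0.21, and the smallest was that of Rpl3 (0.17). Rps3 read 17.09, 17.10 and 17.14 in +/+ control, 17.33, 17.22 and 17.30 in +/+ shTLS, 17.09, 17.06 and 17.16 in -/- control and 17.32, 17.32 and 17.22 in -/- shTLS cells. On this quantile-normalized scale its 6 shTLS values lay above its 6 control values, by 0.18 in the mean. On the spike-in scale the difference of Rps3 was -0.07, and its shTLS and control values overlapped. The SD was largest for Rpl7l1 (0.56), a paralogue of Rpl7, followed by Rps26 (0.49), Rpl37 (0.45), Rps15 (0.41) and Rpl10 (0.40). Rps26 read 14.12, 14.81 and 15.04 in +/+ control, 14.14, 14.80 and 15.09 in +/+ shTLS, 14.28, 14.44 and 14.87 in -/- control and 14.16, 13.90 and 15.11 in -/- shTLS cells. In each group its highest array was that of replicate 3.

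The slide of replicate 3 held higher values across the family. On it, 74 of 80 genes lay above their group means and 56 were above them on all 4 arrays, as were 24.7% of all genes. The median deviation of the 80 genes from their group means was 0.17 on this slide, -0.051 on that of replicate 1 and -0.11 on that of replicate 2. After scaling to the spike-in controls (RNAs of known amount that Agilent's labelling protocol adds to each sample) the medians were 0.15, -0.091 and -0.057. The replicate number is at once slide, mouse and assay, which cannot be told apart here. The other 6 genes, not above their group means on this slide, were Rpl27a, Rplp0, Rpl10a, Rps12, Rpl23a and Rpl39.

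**Figure D1:**
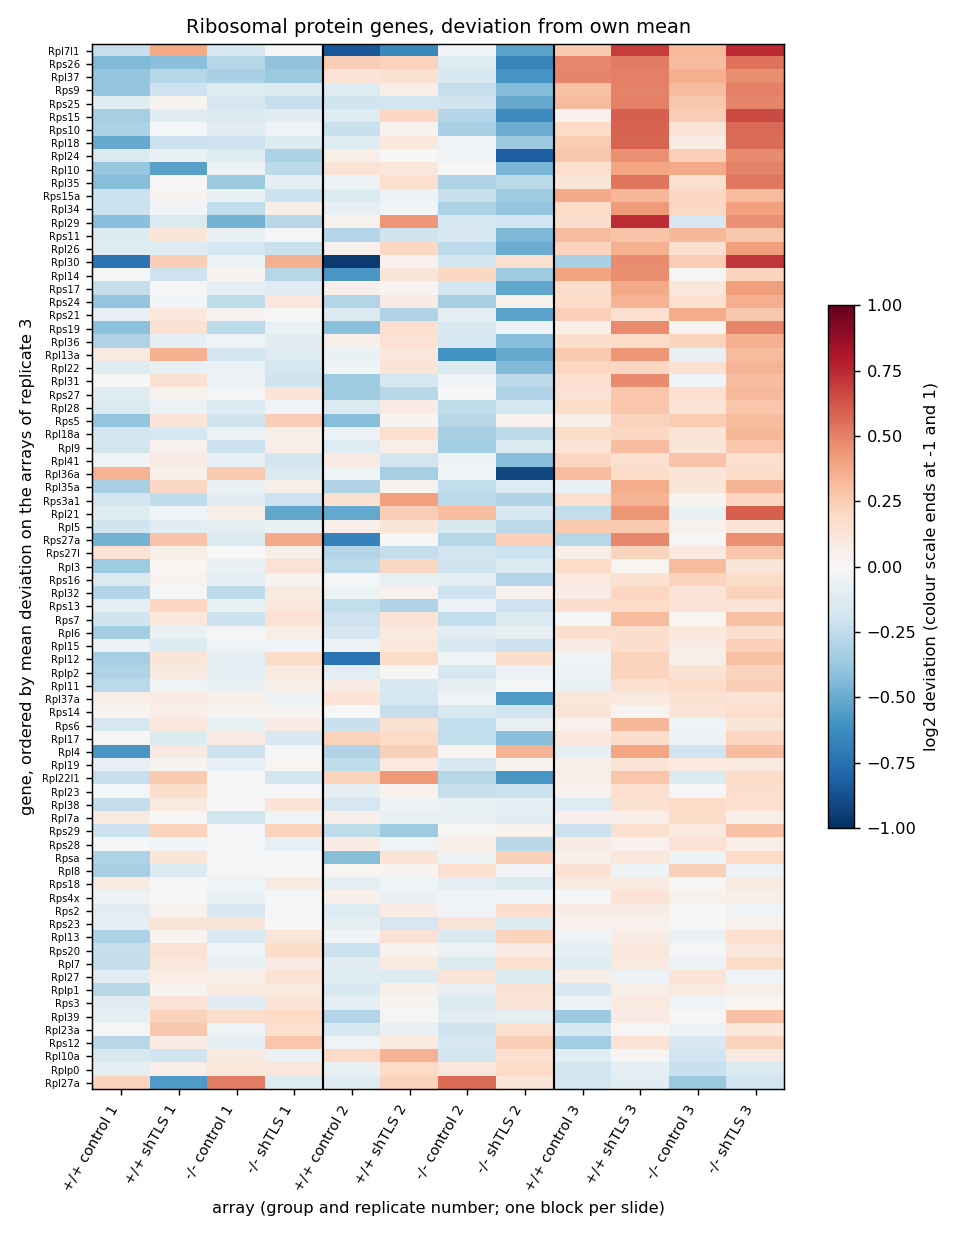
Log2 deviation of each of 79 ribosomal protein genes (rows) from its own mean over 12 arrays (columns, one block of 4 arrays per slide), quantile-normalized. Most rows are red on the 4 arrays of replicate 3, where 56 of 80 genes stood above the group mean on all 4 arrays, and Rpl27a at the bottom is an exception.

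The main comparison asked what the hairpin against TLS did to these mRNAs. On the quantile-normalized scale the family's median difference, averaged over genotypes, was slightly above 0 with shTLS. In the averaged fit that did not pair the cultures of a mouse, 1 gene, Rps27a, rose. Fits that take up the pairing are given below. In +/+ cells the log2 difference between shTLS and control was positive for 69 of 80 genes, with a median of 0.16 (range -0.24 to 0.93), against a median of -0.0098 and 49.5% positive among all genes. In -/- cells it was positive for 51 genes, with a median of 0.047 (all genes -0.022). Averaged over genotypes 61 were positive, with a median of 0.11 (all genes -0.016), and the medians in the 3 pairs of replicate numbers were 0.14, 0.028 and 0.15. The large subunit had 42 of 48 and the small subunit 27 of 32 positive differences in +/+ cells, with medians of 0.18 and 0.12.

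A gene is said to be called, to rise or to fall if its limma p, adjusted over all 19020 genes by the Benjamini-Hochberg method, was under 0.05. In +/+ cells 0 of 80 genes were called, where 1.24% of all genes were. Of the 80, 4 had an unadjusted p under 0.05, as had 3148 of all 19020 genes. In -/- cells 0 were called, where 0.994% of all genes were. Here 0 of 80 had an unadjusted p under 0.05, as had 2318 of all 19020 genes. Averaged over genotypes 1 of 80 was called, upward, where 8.31% of all genes were called and 5.17% upward. Groups that did not overlap, with all 3 shTLS arrays above all 3 controls, were found for 20 of 80 genes in +/+ cells, where 10.9% of all genes showed this. In -/- cells 9 of 80 did so, against 10.5% of all genes. The opposite order was found for 0 of 80 in +/+ cells (9.33% of all genes) and for 1 of 80, Rpl8, in -/- cells (8.82%). Over both genotypes, 6 of 80 genes (Rpl12, Rpl13, Rpl7, Rps12, Rps20 and Rps3) had all 6 shTLS arrays above all 6 controls, against 4.03% of all genes, and 0 had the opposite order, against 2.12%. The difference had the same sign in the 3 mice for 48 genes upward and 2 downward in +/+ cells (26.5% of all genes each way), and for 31 and 6 in -/- cells (27.1% and 28%).

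With the replicate number as a block, which removes the level of each slide with its pair of mice, 5 of 80 genes rose in the averaged comparison, where 15.4% of all genes did, and 0 fell, where 13.7% did. These were Rps27a, Rpl30, Rpl4, Rps19 and Rps12. With each of the 6 mice as a block 4 of them rose (16.9% of all genes), and Rps12 was no longer called (adjusted p = 0.0555). In +/+ cells Rpl30 and Rps27a rose with the block and 0 genes fell (7.52% and 5.13% of all genes), and in -/- cells 0 rose and 0 fell (4.5% and 1.88%). The median in +/+ cells was 0.061 without +/+ shTLS array 3, 0.090 without +/+ control array 1 and 0.25 without +/+ control array 3. The median in -/- cells was -0.045 without -/- shTLS array 3, -0.0043 without -/- control array 2, 0.11 without -/- control array 3 and 0.14 without -/- shTLS array 2, so its sign rested on single arrays.

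**Figure D2:**
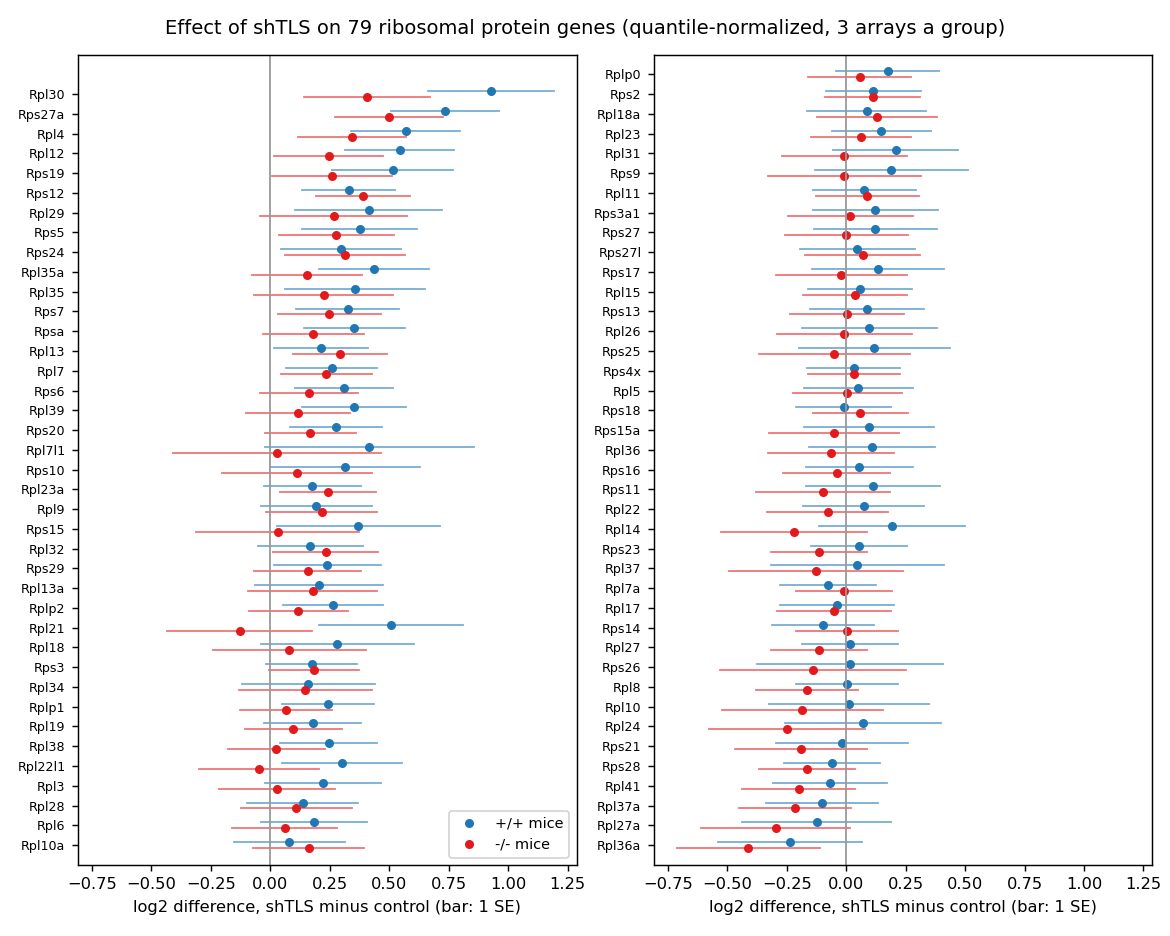
Log2 difference between shTLS and control cells for 79 ribosomal protein genes, ordered by the mean over both genotypes, in +/+ (blue) and -/- mice (red); bars are 1 SE of the limma fit with 3 arrays a group. Points lie right of 0 for 69 genes in +/+ and 51 genes in -/- mice, and Rpl30 and Rps27a are farthest to the right.

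Rps27a encodes a fusion of ubiquitin with a small-subunit protein, which is cleaved after translation. It read 15.39, 15.19 and 15.57 in +/+ control, 16.15, 15.87 and 16.34 in +/+ shTLS, 15.72, 15.57 and 15.88 in -/- control and 16.24, 16.10 and 16.32 in -/- shTLS cells. In both genotypes the shTLS arrays lay above the controls, and each mouse showed the rise. The averaged difference was 0.62 (SE 0.16, 95% interval 0.26 to 0.97, adjusted p = 0.0412, n = 3 arrays a group; with the block 0.00537), higher in 3 of 3 mice of either genotype. It was 0.74 in +/+ (adjusted p = 0.159) and 0.50 in -/- cells (adjusted p = 0.413). The call was lost when any of 9 of the 12 arrays was left out, with differences from 0.56 to 0.65. The adjusted p was then 0.0835 and 0.0603 without +/+ control arrays 1 and 2, 0.0663 and 0.107 without +/+ shTLS arrays 1 and 3, 0.0992 and 0.105 without -/- control arrays 1 and 2, and 0.0631, 0.0688 and 0.0947 without -/- shTLS arrays 1, 2 and 3. Scaled to the spike-in controls, the difference was 0.07 (adjusted p = 0.781). Ubb, another ubiquitin gene, and Fau, which encodes a ubiquitin-like fusion, were looked up after this value was seen, and their averaged differences were 0.06 and 0.13.

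Rpl30, a large-subunit protein, had the largest difference of the family in +/+ cells and in the average on the quantile-normalized scale. In -/- cells that of Rps27a was larger, and on the spike-in and 75th percentile scales the largest averaged difference was that of Rpl12 (0.18 and 1.04, against 0.08 and 0.94 for Rpl30). It read 14.57, 14.36 and 14.99 in +/+ control, 15.56, 15.35 and 15.79 in +/+ shTLS, 15.27, 15.13 and 15.57 in -/- control and 15.67, 15.48 and 16.03 in -/- shTLS cells. The +/+ control arrays lay below all 9 others. The averaged difference was 0.67 (SE 0.19, adjusted p = 0.0521; with the block 0.00376), and it was 0.93 in +/+ cells (adjusted p = 0.134; with the block 0.00917) and 0.41 in -/- cells (adjusted p = 0.561). It was called without +/+ control array 3 (0.75, adjusted p = 0.0416) and without -/- control array 3 (0.73, adjusted p = 0.0478).

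Rpl4, a large-subunit protein that lines the exit tunnel, read 14.17, 14.45 and 14.66 in +/+ control, 14.84, 14.99 and 15.15 in +/+ shTLS, 14.55, 14.77 and 14.56 in -/- control and 14.75, 15.09 and 15.06 in -/- shTLS cells. The groups were apart in +/+ cells and overlapped in -/- cells. The averaged difference was 0.46 (SE 0.16, adjusted p = 0.0991; with the block 0.0252). Rps19, a small-subunit protein whose gene is mutated in Diamond-Blackfan anaemia, read 13.29, 13.29 and 13.77 in +/+ control, 13.85, 13.86 and 14.17 in +/+ shTLS, 13.43, 13.55 and 13.72 in -/- control and 13.64, 13.65 and 14.19 in -/- shTLS cells. Its averaged difference was 0.39 (SE 0.18, adjusted p = 0.185; with the block 0.0389), and the arrays of replicate 3 were the highest in each group. Rps12 read 17.06, 17.30 and 16.99 in +/+ control, 17.42, 17.44 and 17.48 in +/+ shTLS, 17.24, 17.17 and 17.18 in -/- control and 17.61, 17.58 and 17.57 in -/- shTLS cells. Its 6 shTLS arrays lay above its 6 control arrays, with an averaged difference of 0.36 (SE 0.14, adjusted p = 0.124; with the replicate block 0.0497 and with the mouse block 0.0555). Rpl12, of the base of the lateral stalk, read 17.06, 16.65 and 17.35 in +/+ control cells and 17.29 to 17.68 on the other 9 arrays. Its averaged difference was 0.40 (SE 0.16, adjusted p = 0.142; with the block 0.0544).

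**Figure D3:**
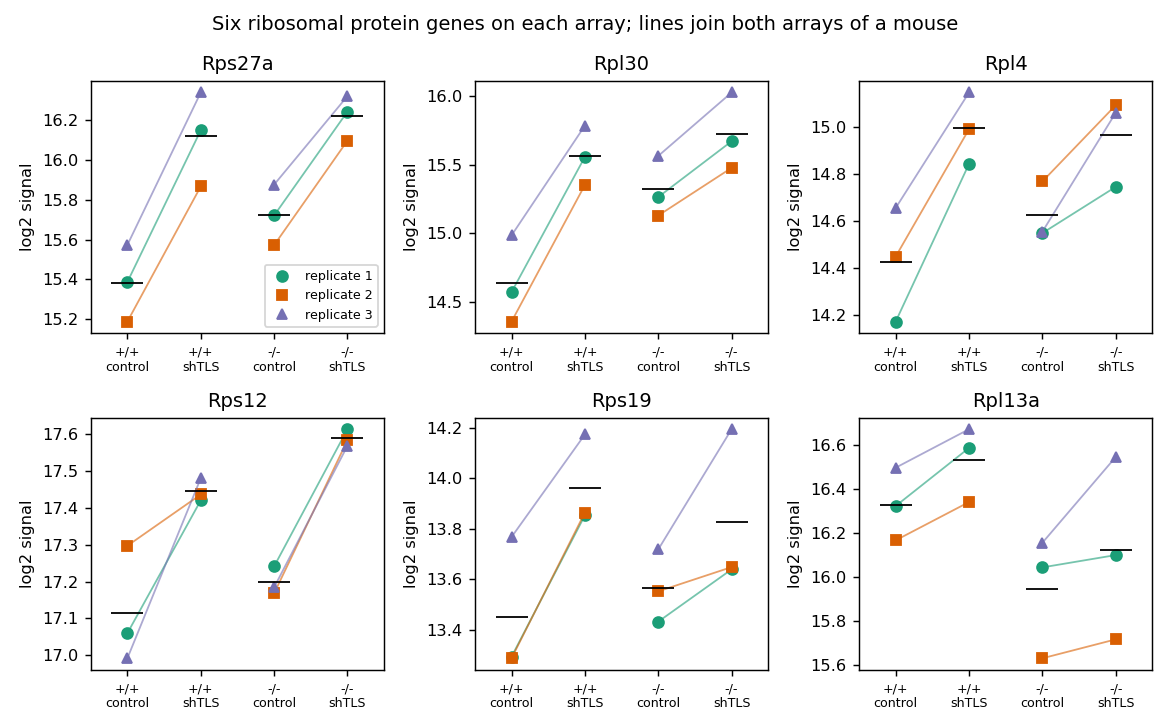
Quantile-normalized log2 signal of 6 ribosomal protein genes on each of 12 arrays; symbols and colours give the replicate number, lines join the control and shTLS arrays of a mouse, and black bars are group means. The lines of Rps27a, Rpl30, Rpl4, Rps12 and Rps19 rise in all 6 mice, and Rpl13a stands lower in -/- than in +/+ control cells.

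At the other end, 0 genes fell, where 3.13% of all genes did. The 4 lowest averaged differences were those of Rpl36a (-0.32, adjusted p = 0.342), Rpl27a (-0.21), Rpl37a (-0.16) and Rpl41 (-0.13). Rpl36a read 16.05, 15.66 and 16.01 in +/+ control, 15.75, 15.38 and 15.88 in +/+ shTLS, 15.96, 15.68 and 15.84 in -/- control and 15.56, 14.79 and 15.89 in -/- shTLS cells. One array, -/- shTLS 2, was far below the others, and without it the averaged difference was -0.17. Leaving out single arrays moved Rpl27a between -0.36 (without -/- control 3) and -0.11 (without +/+ shTLS 1). Rpl37a moved between -0.23 and -0.058 and Rpl41 between -0.21 and -0.066, in both cases without -/- shTLS 3 and without -/- shTLS 2. Rpl27a read 12.84, 12.48 and 12.43 in +/+ control, 12.04, 12.84 and 12.50 in +/+ shTLS, 13.12, 13.17 and 12.24 in -/- control and 12.48, 12.73 and 12.42 in -/- shTLS cells, with groups that overlapped.

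By role, the acidic stalk proteins, which recruit elongation factors, had small positive differences. Averaged over genotypes these were 0.12 for Rplp0 (SE 0.15), 0.15 for Rplp1 (SE 0.14) and 0.19 for Rplp2 (SE 0.15), none of them called. Rplp0, often used as a reference gene for PCR, read 17.86, 17.89 and 17.76 in +/+ control, 18.02, 18.15 and 17.86 in +/+ shTLS, 18.07, 18.07 and 17.73 in -/- control and 18.07, 18.15 and 17.82 in -/- shTLS cells. Its group means were 17.84, 18.01, 17.95 and 18.01. It stood at the top of the scale on shTLS array 2 of either genotype, where no higher value could be read, so its difference may be understated. Rpl13a and Rps18, other common reference genes, had averaged differences of 0.19 (SE 0.19) and 0.02 (SE 0.14).

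Rps6, the substrate of the S6 kinases, read 15.81, 15.76 and 16.02 in +/+ control, 16.08, 16.13 and 16.31 in +/+ shTLS, 15.90, 15.73 and 15.94 in -/- control and 16.05, 15.91 and 16.10 in -/- shTLS cells. Its averaged difference was 0.23 (SE 0.15, adjusted p = 0.310), and it was positive in each pair. Rpsa, which is also known as the laminin receptor, differed by 0.27 (SE 0.15, adjusted p = 0.268). The differences of Rpl5, Rpl11 and Rpl23, which bind the p53 regulator Mdm2 when ribosome assembly fails, were 0.03 (SE 0.16), 0.08 (SE 0.15) and 0.11 (SE 0.15).

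Some members have a paralogue with tissue-specific or lower expression. Rpl22 and Rpl22l1 had averaged differences of -0.0028 (SE 0.18) and 0.13 (SE 0.18), Rpl7 and Rpl7l1 of 0.25 (SE 0.14) and 0.22 (SE 0.31), and Rps27 and Rps27l, a p53 target, of 0.06 (SE 0.18) and 0.06 (SE 0.17). Within each pair the values differed by less than either SE. Rpl3 differed by 0.12 (SE 0.17), Rpl39 by 0.23 (SE 0.15) and Rps4x by 0.03 (SE 0.14). Their paralogues Rpl3l, of striated muscle, and Rpl39l, of testis, were at a mean log2 signal of 2.52 and 1.97.

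The size and the sign of the family's difference depended on how the arrays were brought to one scale. Quantile normalization gives every array the same distribution, whereas the spike-in scale keeps differences in total signal. Before normalization, the 75th percentile of the signal was 764.4 to 1007 on control arrays and 326.9 to 595.3 on shTLS arrays. On the spike-in scale all genes together had a median of -0.77 in the averaged comparison, and the ribosomal protein genes had a median of -0.29, below 0 but above the median of all genes. The medians of the ribosomal protein genes in the 3 pairs of replicate numbers were -0.28, -0.57 and 0.0089, so that the pair of replicate 3 showed no fall (all genes -0.62, -0.85 and -0.83). Positive differences were found for 9 of 80 genes, and 15 of 80 fell (with the block 24), where 48.4% of all genes fell (with the block 61.5%). By genotype, the medians were -0.18 in +/+ (all genes -0.80) and -0.41 in -/- cells (all genes -0.74). In +/+ cells 0 of 80 genes fell (15.6% of all genes) and with the block 3 did (44.7%), and in -/- cells 0 fell (0.4%) and with the block 12 did (40%). In -/- cells the medians of the 3 pairs were -0.54, -0.63 and -0.0085. Rpl27a (-1.01) and Rpl36a (-0.86) had the lowest values on this scale.

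Scaled to the 75th percentile, the averaged median was 0.57 (all genes 0.09), and 15 of 80 genes rose and 0 fell, where 8.04% of all genes rose and 2.53% fell. The genes that rose included Rpl12 (1.04), Rps12 (1.01) and Rplp0 (0.97). The direction in the family therefore flipped between the scales, while its median was above that of all genes on each of them. The spike-in and 75th percentile scales each shift all genes of an array by the same amount. The gap between the family and all genes is therefore the same on both by construction, and they are not separate readings of it. The share of the processed signal that fell on the 80 genes, which needs no scaling, was 8.18% ± 0.93 in +/+ control, 11.5% ± 1.78 in +/+ shTLS, 8.74% ± 0.89 in -/- control and 11.1% ± 1.89 in -/- shTLS cells (SD, n = 3). It ran from 7.33% to 9.76% on the 6 control arrays and from 9.85% to 13.6% on the 6 shTLS arrays, without overlap. The share of other bright probes was not computed, so a rise particular to the family cannot be read from this. On the spike-in scale, 41 other genes above a log2 signal of 17 had a median averaged difference of -0.20, against -0.77 for all genes.

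**Figure D4:**
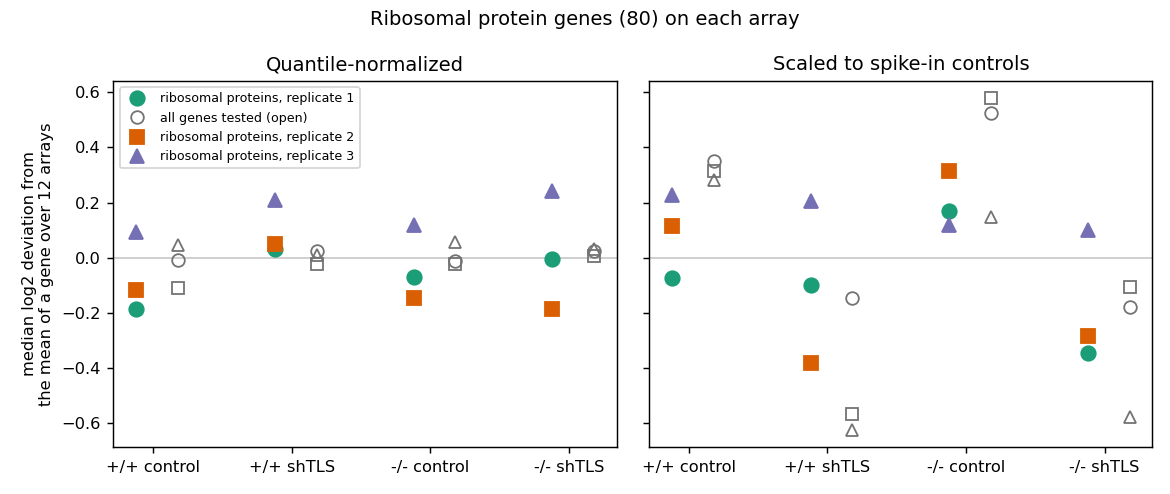
Median log2 deviation of the 80 ribosomal protein genes (filled) and of all genes tested (open) from each gene's mean over 12 arrays, by group, after quantile normalization (left) and spike-in scaling (right). On the right the open symbols are below 0 on all 6 shTLS arrays, and the filled ones lie nearer to 0 on 4 of them.

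Brightness moved with these values. Across the 80 genes, mean signal and averaged difference had a Pearson r of 0.69 on the spike-in scale (Spearman 0.75) and of -0.068 after quantile normalization, as a description over genes that share the same 12 arrays. Other genes of like brightness showed the same slope. On the spike-in scale the median difference at a log2 signal of 14 to 16 was -0.51 for 24 ribosomal protein genes and -0.65 for 864 other genes. From 16 to 17 it was -0.25 for 23 and -0.41 for 108 genes, and above 17 it was -0.10 for 26 and -0.20 for 41 genes. In each of these 3 intervals the median of the ribosomal protein genes lay above that of other genes. The gap was smaller than that between the family's median and the median of all genes. Genes within an interval were not matched for brightness, and what this adds to the gap was not tested. After quantile normalization the medians were 0.11 and 0.01, 0.14 and -0.017, and 0.039 and 0.017 in the same intervals. The part of brightness in the family's difference was not tested further.

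**Figure D5:**
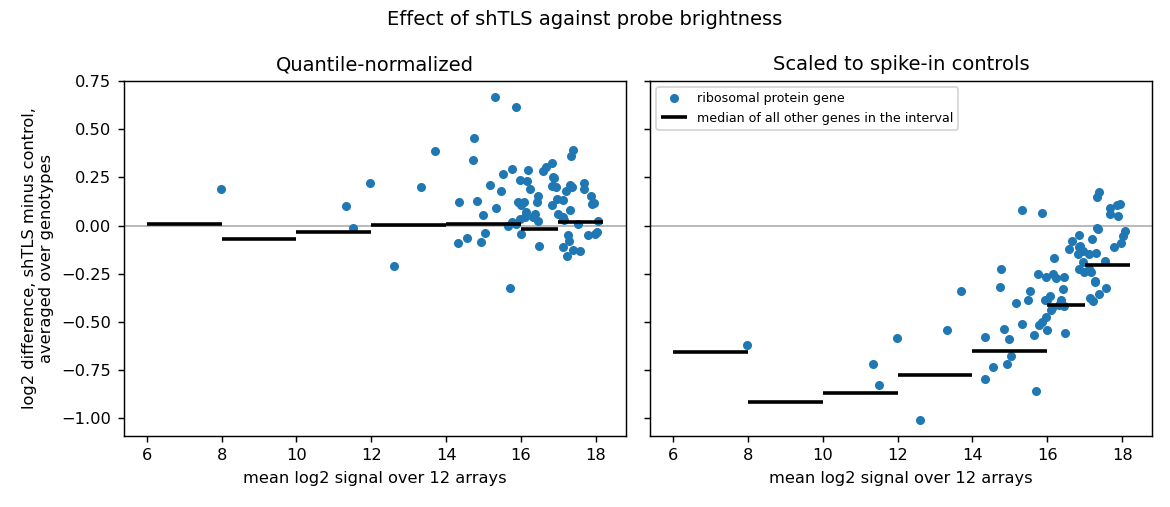
Averaged log2 difference between shTLS and control cells against mean log2 signal for 80 ribosomal protein genes (blue) and the median of all other genes in intervals of signal (black lines), after quantile normalization (left) and spike-in scaling (right). On the right the points rise with signal (r = 0.69) and run along the lines of the other genes.

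For 29 genes several probes were tested, and their averaged differences spanned a median of 0.19. The probes of 8 genes differed in sign, and 4 genes spanned over 0.5. Rps15a had 0.02 by its bright probe and 1.96 by a probe with a mean log2 signal of 5.92, above background on 10 arrays. Rpl7a had -0.32, -0.04 and 0.63, Rpl31 had -0.72 and 0.10, and Rpl22 had -0.65 and -0.0028. Rpl36a had -0.32, -0.28 and -0.06. Rps27a, Rpl30, Rpl4 and Rps19 had 1 probe each. Ribosomal protein genes have many near-identical processed copies in the mouse genome, so a probe may bind their transcripts too, and values of single genes are uncertain to that extent.

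The next comparison asked how -/- cells differed from +/+ cells. Medians over the family lay near 0, and differences of single genes ran from -0.39 to 0.68 with the control hairpin and from -0.51 to 0.17 with shTLS. With the control hairpin 44 of 80 genes were higher in -/- cells, with a median of 0.018 (all genes 0.029), and with shTLS 26 of 80, with a median of -0.065 (all genes 0.016). In both comparisons 0 of 80 genes were called, where 0.0894% and 0.0841% of all genes were. An unadjusted p under 0.05 was found for 1 and 0 of 80 genes (619 and 402 of all 19020 genes). Averaged over vectors, with the mouse as a random block, 0 of 80 were called (0.116% of all genes), and the median was -0.016. Here 0 of 80 had an unadjusted p under 0.05 (521 of all 19020 genes).

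The highest of these averaged genotype differences was that of Rpl30 (0.42, SE 0.22, adjusted p = 1.0), followed by Rps27a (0.22), Rps29 (0.21), Rpl12 (0.19) and Rpl27a (0.17). The lowest was that of Rpl13a (-0.40, SE 0.23, adjusted p = 1.0), followed by Rpl22l1 (-0.34), Rpl29 (-0.27), Rps3a1 (-0.21) and Rps26 (-0.21). Several of these moved when 1 array was left out, so their order is loose. Rpl27a ran from 0.024 (without +/+ shTLS 1) to 0.30 (without -/- control 3), Rpl12 from 0.095 (without +/+ control 2) to 0.26, Rps29 from 0.12 (without +/+ shTLS 2) to 0.27, and Rps26 from -0.34 (without -/- shTLS 3) to -0.098 (without -/- shTLS 2). In control cells, Rpl30 was higher in -/- than in +/+ cells by 0.68 (SE 0.26, unadjusted p = 0.0257, adjusted p = 1.0), without overlap. Rpl13a, a large-subunit protein that can leave the ribosome and silence inflammatory mRNAs, read 16.32, 16.16 and 16.50 in +/+ control and 16.04, 15.63 and 16.15 in -/- control cells, a difference of -0.39 without overlap (adjusted p = 1.0). With the control hairpin, groups did not overlap for 6 genes upward and 1 downward (3.32% and 3.82% of all genes), and with shTLS for Rps12 upward and Rpl22l1 downward (2.71% and 2.54%).

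The last comparison asked whether shTLS acted alike in both genotypes. The difference between both effects of shTLS, -/- minus +/+, was negative for 65 of 80 genes, with a median of -0.13 (all genes 0.0061). It was negative in all 3 replicate numbers for 28 genes and positive in all for 0 (11.5% and 11.7% of all genes). In the limma test of this difference 0 of 80 genes were called, as were 0% of all genes. Here 0 of 80 had an unadjusted p under 0.05 (46 of all 19020 genes). The lowest values were -0.64 for Rpl21 (SE 0.43) and -0.52 for Rpl30 (SE 0.37). The medians in the 3 replicate numbers were -0.15, -0.21 and -0.0016. Without -/- shTLS array 2 the median was 0.00055, without +/+ shTLS array 3 it was -0.031, without -/- control array 3 -0.045 and without +/+ control array 1 -0.056. Of the 80 genes, 0 had effects of opposite sign in all 3 mice of both genotypes (0.289% of all genes).

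Among the 60 tested genes with a promoter window, the 36 with a TOP-like tract, such as Rps6 and Rpl38 above, had a median averaged difference of 0.12 (28 positive). The rule rests on the annotated start and need not sort TOP mRNAs from others. The 24 without a tract by this rule, such as Rplp0, had a median of 0.046 (17 positive), and on the spike-in scale both medians were -0.30. The median log2 signal was 16.2 with and 16.8 without a tract, and the part of brightness in the contrast was not tested. Rpl4, counted here as without a tract although a run ends near its start, had an averaged difference of 0.46 after quantile normalization. That of Rpl15, whose tract is the longest of those shown, was 0.05.

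Other parts of the ribosome pathway were read from lists of genes. In the averaged comparison 5.17% of all genes rose and 3.13% fell, and with the replicate block 15.4% rose and 13.7% fell, which are the shares to set beside each count. Of 31 measured translation factors and other genes with TOP mRNAs, 0 were called in the averaged comparison (8.31% of all genes; with the block 4 rose), with a median of 0.065 and 24 positive. Of 55 ribosome assembly factors, 2 rose and 0 fell (with the block 15 rose), 47 were positive, and the median was 0.29. Utp15 and Utp18, both of the small-subunit processome, were these, with 1.44 (SE 0.32, adjusted p = 0.0228) and 0.58 (SE 0.16, adjusted p = 0.0479). Of 14 genes of RNA polymerase I, which makes ribosomal RNA, 1 rose (with the block 5), namely Taf1d (1.18, SE 0.30, adjusted p = 0.0361), and the median was 0.26.

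Of 29 genes of mTORC1 and S6 kinase signalling, 2 fell and 0 rose (with the block 4 fell and 3 rose), with a median of 0.0093. Those that fell were Nprl3, part of a complex that restrains mTORC1 when amino acids are short (-1.86, SE 0.20, adjusted p = 0.000414), and Eif4ebp2, an inhibitor of cap-dependent translation (-0.78, SE 0.20, adjusted p = 0.0365). Mtor and Rps6kb1 differed by -0.51 and 0.13. The 77 mitochondrial ribosomal protein genes, whose products serve the separate ribosome of mitochondria, had a median of -0.082 and 28 positive differences, and 0 were called (with the block 1 rose and 6 fell). On the spike-in scale the medians were -0.43 for TOP mRNA factors, -0.49 for assembly factors, -0.55 for RNA polymerase I, -0.68 for mTORC1 signalling and -0.86 for mitochondrial ribosomal proteins, against -0.29 for the cytosolic ones. In the difference of both effects, 3 of 55 assembly factors were positive, with a median of -0.26, and 0 were called.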

How the data were processed

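Per the file headers, the authors' array files hold the intensity of each spot, read with Agilent Feature Extraction 10.1.1.1 and background-subtracted within the array. Log2 values of the 12 arrays, floored at 1 and quantile normalized by the authors per the series' design text, stand in a deposited table. The values used were recomputed from the array files in the same way, and the correlation with that table was at least 0.99997 per array. Spots with a non-uniformity or outlier flag were left out. The other columns taken from the deposited array files are flags and, as an alternative, median intensities of spot and background.

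A probe was tested if above background on all 3 arrays of a group with at least 2 values in every group (24966 probes). Tests were done with limma 3.58.1 (R 4.3.3) on 4 group means over 12 arrays, two-sided, adjusted over 19020 genes. In the genotype comparison over both vectors the mouse was a random block (correlation 0.583). The script was tested on simulated data.

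Same-numbered arrays within a genotype come from 1 mouse, per the labels, and their deviations correlated by 0.464 to 0.674, against at most 0.0969 for other numbers. Same-numbered arrays of different genotypes, thus of different mice, correlated by 0.234 to 0.647 with the control hairpin and by 0.518 to 0.613 with shTLS. The correlation therefore does not tell a shared mouse from a shared slide or assay. The spike-in scale subtracts the mean log2 signal of 10 E1A control probes. These derive from an adenovirus and the cells had received adenoviral vectors, and the effect of this was not tested. Promoter windows came from RefSeq GRCm38.p6, which is not the build named in the array headers, so no probe position is given. Precision is limited by 3 arrays a group.

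The members, the gene lists and the rule for named genes were chosen with earlier results of these data known. The rule named genes called, the 5 highest and 5 lowest averaged differences, the 5 brightest, dimmest and most variable, genes fixed by role, and at most 3 called genes a list. A few items that the rule covers are not reported here.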

Additional observations from a re-analysis of the deposited data

How the results depend on the processing

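Results are the number of ribosomal protein genes called and their median log2 difference in each of 7 comparisons, with 19 values of named genes. In the averaged shTLS comparison the number called was 15 with 75th percentile scaling (all higher), 15 with spike-in scaling and 21 with the 6 brighter spike-in probes (all lower, where 53.6% of all genes fell; this setting was chosen after seeing the data). It was 3 with normexp background correction (4.11% of all genes rose), 3 with no filter on dim probes (2.47%), 5 with the replicate block and 4 with the mouse block (16.9%). In +/+ cells it was 2 with either block. With the authors' table, probes above background on all arrays or the mean over the probes of a gene it was 1. Leaving out single arrays gave 0 to 2. On the quantile-normalized scale the replicate block changed no call of these genes in the other comparisons.

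The medians were 0.725, -0.180 and -0.267 in +/+ cells, 0.410, -0.405 and -0.462 in -/- cells and 0.572, -0.289 and -0.360 averaged, with 75th percentile, spike-in and brighter spike-in scaling. The genotype medians were 0.117 with the control hairpin and 0.0388 averaged under spike-in scaling and -0.191 with shTLS under 75th percentile scaling, and the difference of effects was -0.271 there. Without single arrays the medians ran from 0.0607 to 0.252 in +/+, from -0.0448 to 0.144 in -/- and from 0.0394 to 0.153 averaged, from -0.0443 to 0.0916, from -0.172 to 0.0371 and from -0.0509 to 0.0192 for the genotype (control, shTLS and averaged), and from -0.204 to 0.000547 for the difference of effects. Single genes changed sign under spike-in scaling (Rpl4 -0.228, Rps19 -0.339), with the brighter spike-in probes (Rps27a -0.00599, Rpl4 -0.299, Rps19 -0.411) and under 75th percentile scaling (Rpl41 0.537, Rpl37a 0.467). The cause was not tested. The order of genes by level was not run, since signals of different probes are not compared.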
